A study of Mus musculus with 31 samples.

Results

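Neuroblastomas that carried the *Alk* F1178L mutation were compared with neuroblastomas that carried *Alk* R1279Q, within the 129S2 mouse background. The study describes that background as mostly 129S2 and not as pure. Whether the remaining genome differed between the groups was not tested. The members were chosen by tumor number: the 4 F1178L tumors 28, 29, 30 and 31 and the 5 R1279Q tumors 13, 14, 16, 18 and 19, which make 9 of the 31 tumors of the series. All 9 came from mice that carried the *TH-MYCN* transgene, a human *MYCN* gene under the tyrosine hydroxylase promoter, together with a knock-in allele of mouse *Alk*, and each mutation was studied in 1 knock-in line. The F1178L allele keeps a mutated exon flanked by a LoxP and a Lox511 site, whereas the selection cassette of the R1279Q allele was removed by Cre. Background, sex and age were taken from the study's list of tumors characterised by array-CGH. That list gives no chromosome gain or loss for these 9. The mice with F1178L tumors were 36 to 44 days old, and those with R1279Q tumors 58 to 75 days old, so that mutation and age at tumor collection cannot be told apart. Mice 29 and 31 were female and all the others male. *Xist*, which only female cells make, measured 12.67 and 12.42 in tumors 29 and 31 and at most 3.12 in the other 7 tumors. Whether any R1279Q tumors shared a mouse is not stated. Mice of these crosses often had tumors at several sites, and tumors 16 and 19 both came from males of 59 days. Nothing in the labels says that the tumors of a group came from separate animals, and p values measure only the spread between these tumors.

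ALK is a receptor tyrosine kinase of the developing sympathetic nervous system, and activating mutations of its kinase domain occur in familial and sporadic neuroblastoma. The mouse residues F1178 and R1279 correspond to the human residues most often mutated in this tumor. Signals from ALK run through the RAS-ERK and PI3K pathways. Sympathetic neuroblasts, the cells from which neuroblastoma arises, divide while they already make noradrenaline, and later stop dividing as they extend axons and form synapses. A minority of sympathetic neurons becomes cholinergic and makes the peptide VIP, and the receptor RET takes part in that step.

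RNA of each tumor was hybridized to 1 Affymetrix mouse array, and the values are log2 GCRMA signals, so that a difference of 1 is a 2-fold change. All differences are F1178L minus R1279Q. Values under log2 4 were taken as not above background, and where the mean of the lower group was under that limit the difference is given as "at least". The 9137 rows above log2 4 in at least 4 of the 9 tumors were tested with limma, a linear model in which the spread of each gene borrows from that of the whole table. A row passed at a Benjamini-Hochberg adjusted p under 0.05. Correlations over these rows were 0.953 to 0.981 between F1178L tumors, 0.945 to 0.982 between R1279Q tumors and 0.866 to 0.966 between the groups. Tumor 31 had the lowest correlations with the others, 0.866 to 0.960. The axis of greatest variance, with 53% of it, placed the 4 F1178L tumors between 20.85 and 57.94 and the 5 R1279Q tumors between -41.06 and -12.50. In these whole tumors, fewer cells of a type and less RNA per cell cannot be told apart.

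F1178L tumors differed widely from R1279Q tumors of the same background. In F1178L tumors 1106 rows were higher (12.1%) and 1530 were lower (16.7%), together 28.8% of the rows tested. The rises were fewer but larger: 441 rises and 283 falls reached 2-fold, and 108 rises and 36 falls reached 4-fold. The values of the groups did not overlap for 2318 of the 9137 rows (25.4%). The median difference over all rows was -0.06. The counts of list members given below stand beside these shares of all rows. Most tested members of the axon, synaptic vesicle and neuropeptide lists were among the rises, and most of those of the DNA replication, mitosis and ribosome biogenesis lists among the falls. With sex as a covariate the counts were 385 higher and 247 lower, and among male mice alone 299 higher and 195 lower. All 2636 rows kept their direction in these fits, which give the same mutation difference because all R1279Q mice were male. Of these rows, 896 rises and 1159 falls had no overlap between the groups, so that leaving tumors out could not reverse them.

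The genes at the centre of the study split into a group that differed between the mutations and a group that did not pass the test. *Alk* itself measured 10.39, 10.02, 9.93 and 10.08 in F1178L tumors 28 to 31, and 9.70, 9.80, 10.07, 9.89 and 9.64 in the 5 R1279Q tumors in ascending order of their numbers. The groups overlapped, and the difference of 0.28 (SE 0.13, 95% interval -0.01 to 0.57) did not pass the threshold (limma adjusted p = 0.124). Mouse *Mycn*, the endogenous counterpart of the transgene, measured 8.86, 9.64, 9.03 and 8.90 in F1178L tumors, against 7.66, 7.54, 8.37, 6.75 and 6.36 in R1279Q tumors. Every F1178L value lay above every R1279Q value, with a difference of 1.77 (SE 0.38, limma adjusted p = 0.00968). *Ret*, the receptor for ligands of the GDNF family, measured 10.19, 10.06, 9.82 and 9.74 in F1178L tumors and 7.42, 9.11, 8.41, 6.78 and 7.46 in R1279Q tumors. *Ret* was also higher in F1178L tumors without overlap, by 2.12 (SE 0.41, limma adjusted p = 0.00712), and the spread among R1279Q tumors was the wider one. With sex as a covariate the adjusted p (limma) of *Mycn* was 0.0778 and that of *Ret* 0.0504, with differences of 1.61 and 2.17. *Vgf*, a secreted peptide precursor induced by nerve growth factor, averaged 9.72 ± 0.67 in F1178L tumors and 8.61 ± 0.67 in R1279Q tumors (SD, n = 4 and 5), and the difference of 1.12 missed the threshold (95% interval 0.24 to 2.0, limma adjusted p = 0.0586).

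**Figure D1:**
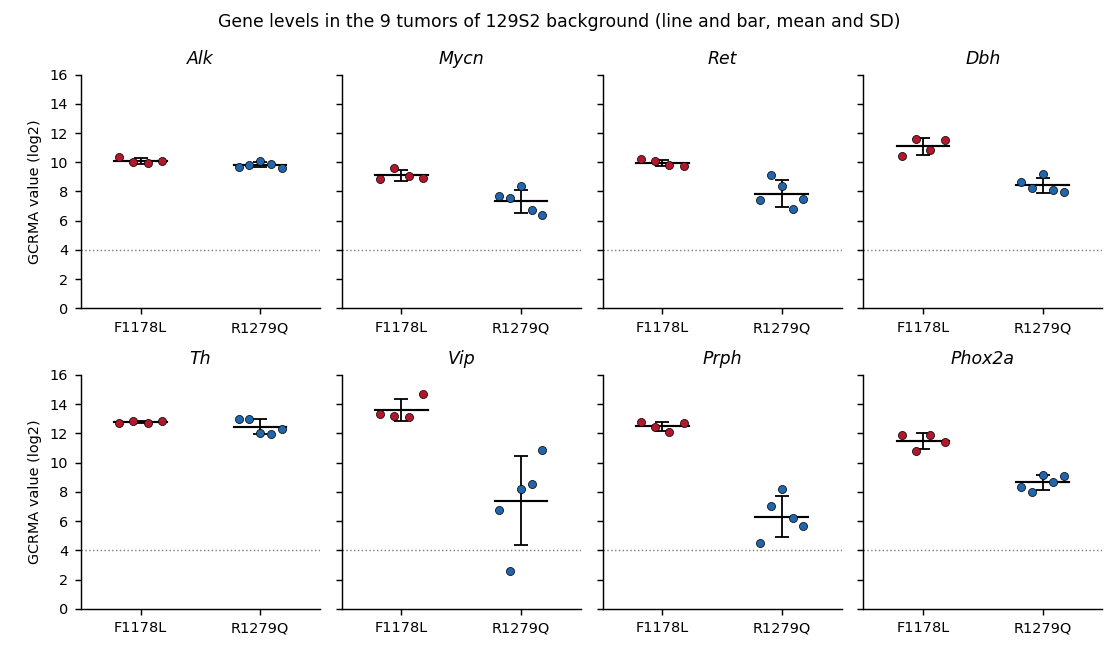
Log2 GCRMA values of 8 genes in the 4 F1178L and 5 R1279Q tumors of 129S2 background (points are tumors, horizontal line and bar are the mean and SD, the dotted line is log2 4). *Mycn*, *Ret*, *Dbh*, *Vip*, *Prph* and *Phox2a* are higher in every F1178L tumor than in every R1279Q tumor, whereas *Alk* and *Th* overlap.

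The noradrenaline pathway moved in part. Of 12 genes of noradrenaline synthesis, storage and breakdown that were tested, 6 were higher in F1178L tumors and 0 lower, with a median difference of 0.73. *Th*, which makes the first and rate-limiting step and whose promoter also drives the transgene, measured 12.71, 12.83, 12.73 and 12.82 in F1178L tumors and 12.99, 12.97, 12.03, 11.95 and 12.28 in R1279Q tumors. *Th* thus overlapped, with a difference of 0.33 (95% interval -0.20 to 0.85, limma adjusted p = 0.311). *Dbh*, the enzyme that turns dopamine into noradrenaline, measured 10.42, 11.61, 10.82 and 11.54 in F1178L tumors and 8.66, 8.21, 9.20, 8.07 and 7.95 in R1279Q tumors. The *Dbh* difference of 2.68 (SE 0.32, limma adjusted p = 0.00169) was the largest of the list. *Gch1*, which makes the cofactor of tyrosine hydroxylase, rose by 1.08, *Cyb561*, the vesicle cytochrome that supplies electrons to dopamine beta-hydroxylase, by 1.0, and *Maoa*, which degrades noradrenaline, by 1.27. The vesicular transporter *Slc18a2* overlapped between the groups, with 0.44 (95% interval -0.03 to 0.90, limma adjusted p = 0.139). The fit with sex as a covariate passed 1 of the 12 genes.

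Cholinergic genes were measured less fully. *Vip* measured 13.33, 13.19, 13.09 and 14.70 in F1178L tumors, against 6.75, 2.61, 8.18, 8.50 and 10.86 in R1279Q tumors. All 4 F1178L tumors were thus near the top of the scale, whereas R1279Q tumors ran over more than 8 log2 units. The difference of 6.19 (SE 1.36, limma adjusted p = 0.0105) was the largest of all rises named here, and with sex as a covariate it was 5.83 with an adjusted p (limma) of 0.0780. *Ache*, which encodes acetylcholinesterase, measured 6.64, 5.54, 5.08 and 6.15 in F1178L tumors and 2.09 to 2.23 in R1279Q tumors, at least 1.85 higher (limma adjusted p = 0.000648). All R1279Q values were below background, so *Ache* entered the test only because all 4 F1178L tumors were above the limit. Its p value is thus not independent of the filter. The vesicular acetylcholine transporter *Slc18a3* was above log2 4 in F1178L tumors 28 and 31 alone, at 6.10 and 4.84, and was not tested. *Slc5a7*, the choline transporter, stayed between 2.03 and 2.07 in all 9 tumors. *Prima1*, the membrane anchor of acetylcholinesterase, was lower in F1178L tumors by 0.61 (limma adjusted p = 0.0305).

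Neuropeptides, the proteins of dense-core granules and their processing enzymes formed a list of 15 tested members. Of these 8 were higher in F1178L tumors, 0 were lower and 7 did not pass, with a median difference of 1.04 and 2 negative values. *Npy*, the peptide of noradrenergic sympathetic neurons, measured 9.76, 10.08, 9.38 and 10.50 in F1178L tumors and 7.57, 5.88, 7.54, 7.36 and 7.11 in R1279Q tumors (difference 2.84, SE 0.36, limma adjusted p = 0.00184). *Scg2*, a granin of secretory granules, measured 10.48, 10.25, 10.12 and 11.30 in F1178L tumors and 7.62, 8.68, 8.05, 6.95 and 7.91 in R1279Q tumors (difference 2.69, SE 0.35, limma adjusted p = 0.00185). Neither gene overlapped between the groups. *Adcyap1*, the peptide PACAP, rose by 1.10, *Cartpt* by 1.09 and *Chga*, chromogranin A, by 0.90. *Gal*, galanin, was at 7.53 to 10.00 in F1178L tumors and 5.83 to 7.79 in R1279Q tumors and did not pass. Without tumor 31, 4 of the 15 members passed, and with sex as a covariate 3.

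The cyclic AMP response element, TGACGTCA, is a motif of many neuropeptide promoters. It was searched in the 250 bases before each start site in RefSeq (GRCm38.p6), together with the shorter form TGACGTC on both strands, which every full element also holds. The full element stood in 3 of the 12 promoters at hand of this list (25%) and in 3.3% of those of all tested genes. The shorter form stood in 5 of the 12 (41.7%) and in 420 of 7166 promoters of all tested genes (5.9%), and in 6.0% of the promoters of genes higher in F1178L tumors. The promoters of *Vip* (chr10:5638968-5639217, plus strand) and *Scg2* (chr1:79440027-79440276, minus strand) are printed as examples of this family with large rises, with the matches in capitals. *Vip* holds the shorter form alone. *Scg2* holds the full element, which reads the same on both strands, so that its 2 matches to the shorter form overlap. A match is a description of the sequence and not evidence that a factor bound there.
Vip: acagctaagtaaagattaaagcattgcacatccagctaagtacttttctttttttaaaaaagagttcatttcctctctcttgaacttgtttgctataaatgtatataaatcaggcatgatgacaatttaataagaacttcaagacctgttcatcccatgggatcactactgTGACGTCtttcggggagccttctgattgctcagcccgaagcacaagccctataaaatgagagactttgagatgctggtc
Scg2: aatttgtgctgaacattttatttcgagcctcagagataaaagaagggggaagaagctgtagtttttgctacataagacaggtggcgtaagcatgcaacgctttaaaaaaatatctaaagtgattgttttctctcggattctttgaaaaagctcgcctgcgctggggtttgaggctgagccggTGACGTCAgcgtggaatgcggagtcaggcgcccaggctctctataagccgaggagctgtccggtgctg

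Most tested genes of the axon and of the neuronal cytoskeleton were higher in F1178L tumors. Of 24 members, 16 were higher in F1178L tumors and 0 lower, 14 did not overlap between the groups, and the median difference was 0.90. Over all rows 12.1% were higher and 25.4% did not overlap. *Prph* encodes peripherin, the intermediate filament of peripheral neurons, and measured 12.76, 12.43, 12.06 and 12.68 in F1178L tumors, against 4.49, 7.03, 8.16, 6.19 and 5.67 in R1279Q tumors. Its difference of 6.17 (SE 0.62, limma adjusted p = 0.000958) was close to that of *Vip*, with a far smaller spread. *Sncg*, gamma-synuclein of peripheral axons, was at 9.0 to 10.77 in F1178L tumors and 4.88 to 7.12 in R1279Q tumors (difference 3.70). *Dpysl3* (2.15), *Mapt* (1.65), *Gap43* (1.34), *Map1b* (1.29) and *Tubb3* (1.02), which act in growth cones and microtubules, all rose without overlap, at limma adjusted p from 0.000739 to 0.00265. *Nefl* rose by 0.46, and the other neurofilament genes *Nefm* and *Nefh* did not pass. Of the 24 genes 10 passed with sex as a covariate, 8 among male mice, and without any 1 tumor between 15 and 18.

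The synaptic vesicle list had 15 of 20 tested members higher, 0 lower, 14 without overlap (25.4% of all rows) and a median of 1.08. *Syn2*, a synapsin that tethers vesicles, measured 10.11, 9.71, 9.60 and 10.06 in F1178L tumors and 7.66, 8.01, 7.89, 7.59 and 8.14 in R1279Q tumors (difference 2.01, SE 0.16, limma adjusted p = 0.000678). Every F1178L tumor was more than 1 log2 unit above every R1279Q tumor. *Pclo*, a scaffold of the active zone, rose by 2.34, *Doc2b*, a calcium sensor of exocytosis, by 1.68, *Syt4* by 1.46 and *Syn1* by 1.43. *Syt1*, the main calcium sensor of fast release, was at 5.76 to 6.16 in F1178L tumors and 3.27 to 4.25 in R1279Q tumors, at least 1.90 higher. Of the 20 genes 11 passed with sex as a covariate, 10 among male mice, and without any 1 tumor between 13 and 16.

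**Figure D2:**
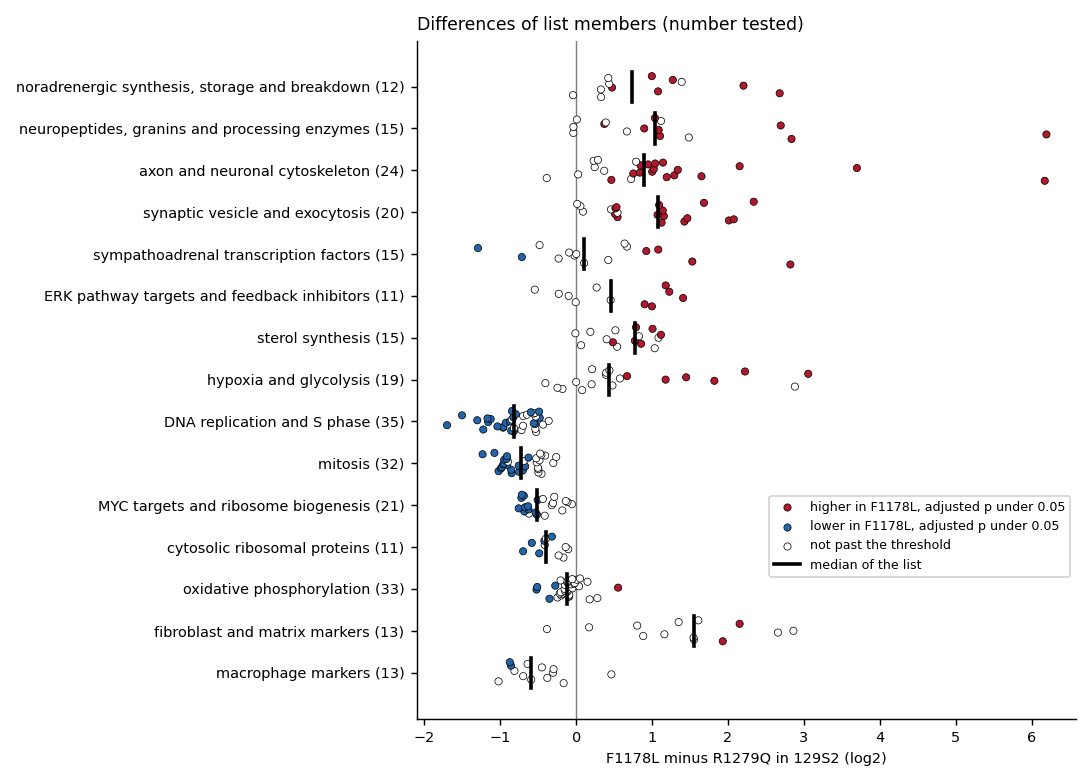
Differences, F1178L minus R1279Q in 129S2 on the log2 scale, of the tested members of 15 gene lists (filled points passed the threshold, red higher and blue lower in F1178L tumors; open points did not pass; black bars are the medians of the lists). The axon and synaptic vesicle lists lie to the right with medians of 0.90 and 1.08, and the replication and mitosis lists lie wholly to the left with medians of -0.82 and -0.73.

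Of 15 tested transcription factors of the sympathoadrenal lineage, 4 were higher and 2 lower in F1178L tumors, with a median of 0.10. Over all rows 12.1% were higher and 16.7% lower, so that the falls were no more frequent than among all rows. *Phox2a*, a homeodomain factor that acts on the *Dbh* promoter, measured 11.87, 10.78, 11.86 and 11.38 in F1178L tumors and 8.32, 7.98, 9.14, 8.70 and 9.11 in R1279Q tumors (difference 2.82, SE 0.30, limma adjusted p = 0.00124). *Gata2* (1.53), *Ebf1* (1.08) and *Sox4* (0.92) were the other rises. *Insm1*, a factor of dividing neuroendocrine precursors, was lower at 9.17 to 10.09 in F1178L tumors, against 10.11 to 10.67 in R1279Q tumors (difference -0.72, limma adjusted p = 0.0208). *Ebf2* was lower too, at 2.61 to 3.19 and so below background in F1178L tumors, against 3.27 to 4.73 in R1279Q tumors (at least 0.28 lower). *Isl1*, a homeodomain factor of sympathetic neuroblasts, was at 12.41 to 12.89 in F1178L tumors and 12.49 to 13.09 in R1279Q tumors and did not pass (95% interval of the difference -0.58 to 0.11). As a check of the tumor type, 11 markers of sympathetic neuroblasts were tested, which include *Isl1* and *Phox2a* and share members with the noradrenaline and axon lists. Of these 6 were higher in F1178L tumors and 0 lower, with a median of 0.75, and 4 passed with sex as a covariate. Their mean was 11.23, 11.35, 11.2 and 11.32 in F1178L tumors 28 to 31 and 9.98 to 10.63 in R1279Q tumors, so that all 9 tumors had them far above background.

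Genes downstream of the receptor showed a smaller shift. Of 11 tested targets and feedback inhibitors of the ERK pathway, 5 were higher in F1178L tumors and 0 lower, with a median of 0.45. Among these 11 differences 7 were positive and 4 negative. *Etv5*, a transcription factor induced by ERK, measured 7.78, 7.80, 6.97 and 7.52 in F1178L tumors and 5.95, 6.52, 6.92, 5.33 and 5.81 in R1279Q tumors (difference 1.41, SE 0.32, limma adjusted p = 0.0116). *Dusp6*, the phosphatase that dampens ERK, rose by 1.0 with overlap between tumor 29, at 8.77, and R1279Q tumor 19, at 8.80. *Spry1* and *Myc* also passed but were close to background. Of the 11 genes 1 passed with sex as a covariate, and 3 without tumor 28, 31, 13 or 14. In the list of ALK ligands and relatives, *Ptn*, pleiotrophin, was at 6.65 to 7.58 in F1178L tumors and 3.72 to 5.99 in R1279Q tumors. Its difference of 2.58 passed (limma adjusted p = 0.00517), while midkine (*Mdk*) did not pass at 0.20. With sex as a covariate 1 member of that list was higher, and among male mice 0. From other lists, *Bcl2*, the inhibitor of apoptosis, rose by 1.49, and *Cdkn1a*, the CDK inhibitor p21, by 2.05. The Bcl2 family had 1 of 8 tested members higher and 1 lower, with a median of -0.05. An effect of *Alk* on these genes was not tested.

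DNA replication genes were the clearest group of falls. Of 35 tested members, 22 were lower in F1178L tumors and 0 higher, all 35 had a negative difference, and the median was -0.82. *Mcm6*, a subunit of the replicative helicase, measured 10.26, 10.32, 11.17 and 9.90 in F1178L tumors and 11.90, 11.31, 11.51, 11.73 and 11.73 in R1279Q tumors (difference -1.22, SE 0.24, limma adjusted p = 0.00708). Every R1279Q tumor was above every F1178L tumor, with tumor 30 the closest. *Gins2*, a helicase partner, measured 5.12, 4.75, 5.33 and 4.42 in F1178L tumors and 7.19, 5.85, 6.49, 6.92 and 6.58 in R1279Q tumors (difference -1.70, SE 0.28, limma adjusted p = 0.00402). The DNA polymerase subunit *Pold1* fell by 1.3, the primase subunit *Prim2* by 1.17 and the clamp loader subunit *Rfc4* by 1.16. *Ung*, which removes uracil from DNA, fell by 1.5. As a mean over the 35 genes, F1178L tumors 28 to 31 stood at 8.15, 8.32, 8.55 and 7.75, and R1279Q tumors at 9.38, 8.52, 9.07, 9.15 and 8.94, so that the groups overlapped between tumor 30 and tumor 14.

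Binding of E2F to promoters is a hallmark of S phase genes, and 4 versions of its site (TTTCCCGC, TTTGGCGC, TTTCGCGC and TTTGGCGG) were searched on both strands. They stood in 8 of the 27 promoters at hand of the replication list (29.6%), against 322 of 7166 promoters of all tested genes (4.5%), and in 7.4% of the promoters of genes lower in F1178L tumors. The promoter of *Mcm6* (chr1:128359706-128359955, minus strand, GRCm38.p6) is printed because it holds 3 matches, in capitals, of which 2 overlap on opposite strands.
Mcm6: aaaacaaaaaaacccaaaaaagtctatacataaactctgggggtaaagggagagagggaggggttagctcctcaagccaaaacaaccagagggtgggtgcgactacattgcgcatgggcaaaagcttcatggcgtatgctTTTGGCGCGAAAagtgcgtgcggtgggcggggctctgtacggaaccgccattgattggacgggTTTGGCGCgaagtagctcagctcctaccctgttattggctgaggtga

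Mitotic genes followed, with 18 of 32 tested members lower in F1178L tumors, 0 higher, and a median of -0.73. *Cdc20*, the activator of the anaphase promoting complex, measured 10.69, 10.67, 10.69 and 9.88 in F1178L tumors and 11.55, 11.28, 11.30, 11.77 and 11.39 in R1279Q tumors (difference -0.98, SE 0.19, limma adjusted p = 0.00716). *Cenpa*, the histone of centromeres, fell by 0.96, the checkpoint kinase *Bub1b* by 1.02 and separase (*Espl1*) by 1.08. The letters TTTGAA, the cell cycle homology region of G2/M promoters, stood in 9 of 27 promoters of this list (33.3%) and in 12.6% of all. Of 13 tested regulators of the G1 phase, 3 were lower and 1 higher in F1178L tumors, with a median of -0.06 and 6 positive and 7 negative differences. Over all rows 16.7% were lower and 12.1% higher. *E2f1* fell by 1.04, *E2f2* by 0.83 and *Rbl1*, the pocket protein p107, by 0.95, while the CDK inhibitor *Cdkn1a* was the rise. Without tumor 31, 1 of them was lower, and with sex as a covariate 0.

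The calls on replication and mitosis depended on the tumors in the fit. Adding sex as a covariate left 1 replication gene and 0 mitotic genes past the threshold, and male mice alone left 0 and 2, while the medians among males were -0.63 and -0.53. Without tumor 31, the lowest on both lists, 12 replication and 11 mitotic genes passed. Leaving out tumor 28 gave 14 and 10, tumor 13 gave 13 and 9, and tumor 18 gave 13 and 8. Without tumor 14, the R1279Q tumor lowest on both lists, the counts were 28 and 23.

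MYC target genes and genes of ribosome biogenesis were lower in F1178L tumors, where mouse *Mycn* was higher. Of 21 tested members, 11 were lower and 0 higher, all 21 differences were negative, and the median was -0.52. *Gar1*, a protein of the small nucleolar ribonucleoproteins that modify ribosomal RNA, measured 9.91, 10.02, 10.12 and 9.71 in F1178L tumors and 10.56, 10.53, 10.51, 10.96 and 10.51 in R1279Q tumors (difference -0.67, SE 0.13, limma adjusted p = 0.00714). *Nhp2* of the same particles fell by 0.76, the nucleolar protein *Gnl3* by 0.71 and the RNA helicase *Ddx21* by 0.69. Among the 11 cytosolic ribosomal proteins that could be named and tested, 5 were lower, with a median of -0.40 and *Rpl14* in front (-0.70), and 3 were lower without tumor 28, 29, 31, 13 or 18. The E-box CACGTG, to which MYC proteins bind, stood in 1 of 19 promoters at hand (5.3%) and in 10.2% of all promoters. The human transgene was not measured by itself here. Without tumor 31 or tumor 29, 5 of the 21 genes passed, without tumor 13 or tumor 18, 7, and with sex as a covariate 0.

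**Figure D3:**
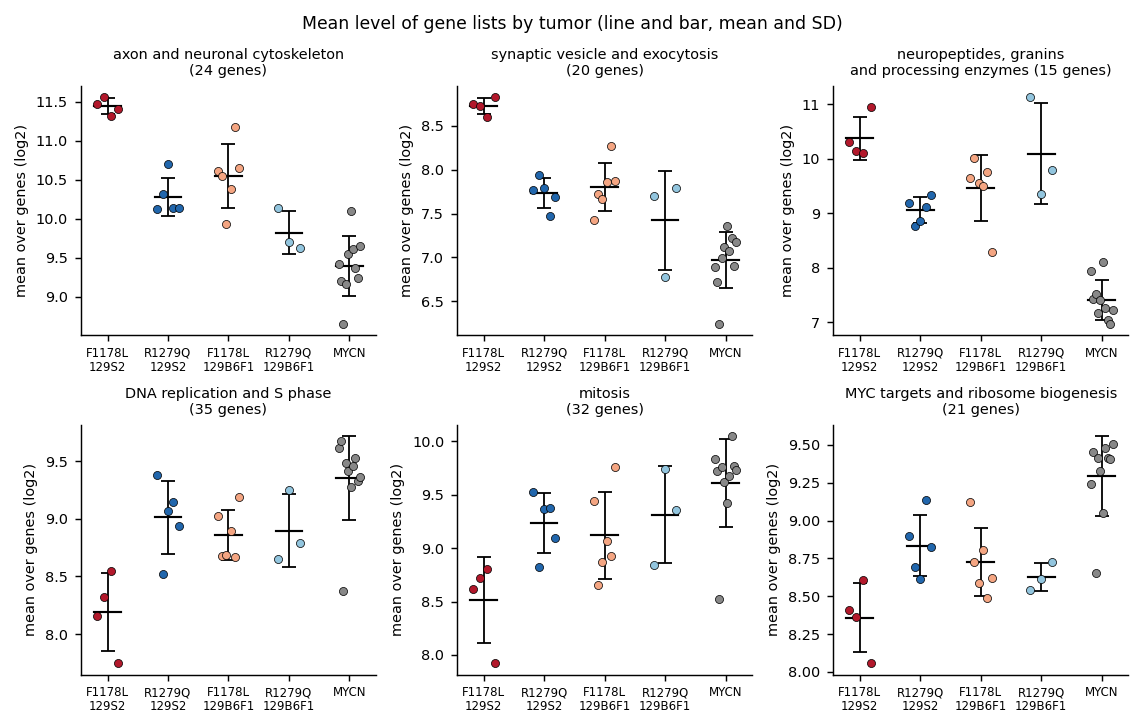
Mean log2 value of 6 gene lists in each tumor of 5 groups: F1178L and R1279Q in 129S2, F1178L and R1279Q in 129B6F1, and *MYCN* tumors without an *Alk* mutation, whose background is not given (points are tumors, line and bar the mean and SD). The F1178L tumors of 129S2 are the highest of the 5 groups on the axon list, at 11.32 to 11.56, and on the synaptic vesicle list, at 8.6 to 8.83.

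Metabolic genes differed between pathways. Of 19 tested genes of glycolysis and hypoxia, 6 were higher in F1178L tumors and 0 lower, with a median of 0.44. *Slc2a3*, the neuronal glucose transporter, was at 10.53 to 11.24 in F1178L tumors and 8.53 to 9.54 in R1279Q tumors (difference 1.82, SE 0.24, limma adjusted p = 0.00204). The brain isoform *Aldoc* rose by 3.06 and hexokinase 1 (*Hk1*) by 1.18. Of 15 tested genes of sterol synthesis, 6 were higher, 0 lower, and the median was 0.77, with *Nsdhl* (1.12), *Dhcr7* (1.01) and *Fdft1* (0.86) in front. The fit with sex as a covariate passed 3 of the glycolysis and 1 of the sterol genes. Oxidative phosphorylation moved little, with 1 of 33 genes higher, 4 lower (2 without tumor 28, 29 or 13) and a median of -0.11. These shares stand beside 12.1% higher and 16.7% lower over all rows.

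The 15 largest rises of genes above log2 6 on average in F1178L tumors held several neuronal and secreted proteins beside *Vip*, *Prph* and *Sncg*. *Gda*, guanine deaminase, measured 9.94, 9.75, 9.83 and 11.30 in F1178L tumors and 5.76, 5.78, 6.45, 4.91 and 5.67 in R1279Q tumors (difference 4.49, SE 0.37, limma adjusted p = 0.000684). *Tafa2*, a secreted chemokine-like protein of neurons, was at 8.15 to 8.94 in F1178L tumors and 3.74 to 5.16 in R1279Q tumors (difference 4.18), and *Crabp1*, which binds retinoic acid, at 7.44 to 9.31 in F1178L tumors and 3.46 to 4.93 in R1279Q tumors (4.26). *Nrn1*, neuritin, which promotes neurite growth, differed by 4.05, with R1279Q tumor 16 at 7.78 far above the other R1279Q tumors at 3.01 to 4.31. Genes near or below background in R1279Q tumors were the ubiquitin ligase *Rnf152* (at least 3.85 higher), the axonal protein *Islr2* (at least 3.73), the matricellular protein *Ccn3* (at least 3.65), the heparan sulfate sulfotransferase *Hs3st2* (at least 3.38), *Tm4sf4* (at least 3.37), the hormone *Ghrh* (at least 3.22), the synapse organiser *Cbln4* (at least 2.92) and *Nwd2* (at least 2.77).

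The 15 largest falls were of genes with varied roles. *Ppp1r17*, an inhibitor of protein phosphatases, measured 6.90, 7.21, 7.71 and 7.47 in F1178L tumors and 11.56, 11.82, 9.97, 11.32 and 11.21 in R1279Q tumors (difference -3.85, SE 0.34, limma adjusted p = 0.000739). *Cd5l*, a protein secreted by tissue macrophages, was at 2.63 to 6.87 in F1178L tumors and 7.60 to 9.91 in R1279Q tumors (difference -3.96, limma adjusted p = 0.0156). *Klhl32* (-2.98), the nuclear factor *Nfix* (-2.39), *Zc3h12c*, an RNase of the regnase family (-2.36), the neuronal factor *Neurod6* (-2.30) and the lipid phosphatase *Inppl1* (-2.24) were above background in both groups. Near or below background in F1178L tumors were *Igfbpl1* (at least 3.42 lower), embryonic myosin *Myh3* (at least 3.32), *Dach1* (at least 2.70), the MAP kinase phosphatase *Dusp9* (at least 2.50), *Ctla2b* (at least 2.37), the imprinted *Peg10* (at least 2.35), *Thg1l* (at least 2.14) and *Ripply2* (at least 2.12).

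Markers of other cell types were compared because tumors hold stroma and leave some host tissue at their edge. As a mean over 13 fibroblast and matrix genes, F1178L tumors 28 to 31 stood at 7.90, 7.68, 8.07 and 9.33 and R1279Q tumors at 5.69, 5.50, 7.31, 7.43 and 8.26, so that tumor 31 was highest and tumors 13 and 14 lowest. Of these genes 2 were higher in F1178L tumors, *Thy1* (2.15) and *Col1a1* (at least 1.44), 0 were lower and the median was 1.55. That share of rises was near the 12.1% of all rows. Without tumor 28, 31 or 13, 0 of the 13 passed, without tumor 14, 16, 18 or 30, 1, and without tumor 19, 5. Over 4 fat cell genes, the 4 F1178L tumors stood at 6.61, 7.74, 8.02 and 9.93 and the R1279Q tumors at 5.49, 5.66, 8.26, 8.04 and 7.80, and 0 of the 4 passed. *Adipoq*, adiponectin, was 12.27 in tumor 31 and at most 8.18 elsewhere. Of 13 macrophage genes, 2 were lower in F1178L tumors (*Laptm5*, -0.87, and *Lyz2*, -0.86) and 0 higher, with a median of -0.59, a share near the 16.7% of all rows. The count was 2 without tumor 31, 3 without tumor 14 and 0 without any other 1 tumor. Schwann cell genes were mostly undetected: *Sox10* stayed at 2.51 to 3.26 and *S100b* at 2.24 to 3.75 in all 9 tumors. *Pmp22*, which those cells share with fibroblasts, rose by 1.65. Markers of T and NK cells (2.21 to 2.24), B cells (2.06 to 2.12) and kidney (2.36 to 2.46) averaged below background in all 9 tumors. The part of stroma in the gene lists was not tested. Without tumor 31, 1702 of the 2636 called rows passed.

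**Figure D4:**
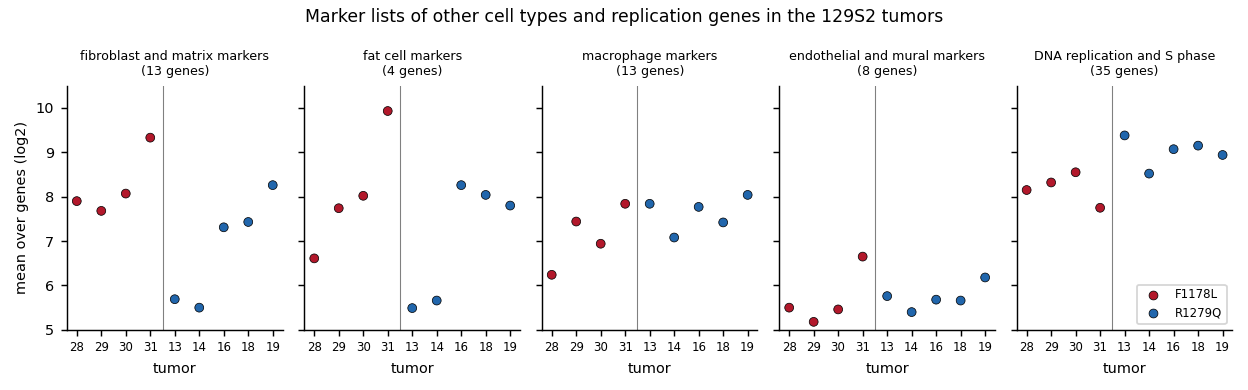
Mean log2 value of 4 marker lists of other cell types and of the replication list in each 129S2 tumor (F1178L tumors left of the line, R1279Q tumors right of it). Tumor 31 is highest for fibroblast, fat and endothelial genes and lowest for replication genes, at 9.33, 9.93, 6.65 and 7.75, while R1279Q tumors 13 and 14 are lowest for fibroblast and fat genes.

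The *Alk* locus was looked at because the alleles were made by gene targeting and flanking sequence can differ between lines. Among the 25 nearest tested genes on each side of *Alk* on chromosome 17, 7 were higher and 8 lower in F1178L tumors (30%), beside 28.8% of all rows. Before *Alk* 5 of the 25 were higher and 5 lower (40%), and after it 2 were higher and 3 lower (20%). The differences of all these neighbours lay between -1.42, for the helicase *Ddx11*, and 0.89, for the mannosidase *Man2a1*. *Wdr43*, 2 tested genes away before *Alk*, fell by 0.72, and *Lclat1*, 2 genes after it, rose by 0.35. The other calls before *Alk* were *Efna5*, *Pja2*, *Epb41l3* and *Myl12b*, higher, and *Ndufv2*, *Rab12* and *Smchd1*, lower. After *Alk* they were *Morn2*, higher, and *Ttc27*, *Fam98a* and *Prkd3*, lower. By chromosome, between 24.6% and 31.8% of tested genes passed.

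The same mutations were set against each other in the F1 hybrid background 129B6F1, with 6 F1178L and 3 R1279Q tumors. These tumors share no sample with the 129S2 tumors, and their mice were older within each mutation. By the study's array-CGH most of them had chromosome gains or losses, whereas the 129S2 tumors had none. Background, age and such gains or losses cannot be told apart. Each mutation group of 129B6F1 held both sexes, while all R1279Q mice of 129S2 were male. In 129B6F1, 0 of 9137 rows passed with limma, and 890 had an unadjusted p under 0.05. This fit took its spread from all 18 tumors of known background, on rows filtered in 129S2, unlike the main fit on 129S2 tumors alone. In a fit on the same 18 tumors, the 129S2 difference passed for 514 rises and 632 falls. Of the 2636 rows called by the main fit in 129S2, 68.6% had the same sign in 129B6F1, against 58.5% of all rows. The median absolute difference of these called rows was 0.721 in 129S2 and 0.243 in 129B6F1. The rows were picked by their difference in 129S2, which enlarges the first value. These medians therefore do not compare the size of the mutation difference between the backgrounds. The replication list had a median of -0.05 in 129B6F1, the mitosis list -0.18, the axon list 0.74 and the synaptic vesicle list 0.29, each next to the 129S2 values given above. The noradrenaline list, at 0.45, also kept its sign. The neuropeptide list had a median of -0.46 in 129B6F1, the fibroblast list -0.64 and the MYC target list 0.08, each of the opposite sign to 129S2. *Ret* differed by 1.43 and *Mycn* by 0.99 in 129B6F1, and the difference between backgrounds did not pass for either gene (limma adjusted p = 0.689 and 0.635).

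A test of the difference between the backgrounds (interaction, limma) passed for 13 of 9137 rows (0.142%), 12 of them with a greater excess of F1178L in 129S2. The rows were filtered on the 129S2 tumors alone, so that genes high only in 129B6F1 could not enter. With no filter, 7 rows had that greater excess and 3 the other sign. *Phox2a* had the greatest value. It measured 7.29 to 9.94, with a median of 8.42, in F1178L tumors of 129B6F1, and 10.19, 11.21 and 12.03 in R1279Q tumors of that background, the opposite order of 129S2. Its difference was 2.82 in 129S2 and -2.68 in 129B6F1, which makes 5.50 between them (SE 0.68, limma adjusted p = 0.00156). *Ache* was at 2.20 to 3.06 in F1178L tumors and 2.11 to 2.40 in R1279Q tumors of 129B6F1, and at 2.0 to 2.21 in *MYCN* tumors, so that only the F1178L tumors of 129S2 had it above background among these groups (interaction 3.49, SE 0.36, limma adjusted p = 0.000286). *Cd9*, a tetraspanin of the cell surface, measured 12.38, 11.44, 11.67 and 12.79 in F1178L tumors and 7.75, 7.46, 9.02, 8.20 and 9.47 in R1279Q tumors of 129S2, and 9.04 to 11.66 in F1178L and 10.87 to 11.22 in R1279Q tumors of 129B6F1 (interaction 4.60, limma adjusted p = 0.0230). The laminin receptor subunit *Itga6* (3.94), *Fam89a* (3.61) and the olfactory receptor *Olfr78* (3.59) followed, and *Thg1l*, an enzyme of transfer RNA, was the 1 gene with the other sign (-3.22). *Phox2a* and *Ache* passed without any 1 of the 18 tumors, whereas each of the other 11 lost the call in 5 or more of those 18 fits. *Ache*, *Olfr78* and *Fam89a* had passed the filter only through the F1178L tumors of 129S2, the group where they were high. Their calls are thus not independent of the filter. They were tested under 6 of the other settings, and the remaining genes under 8. *Vip* (7.42), *Nrn1* (5.51) and *Ghrh* (5.06) had values as large but did not pass (limma adjusted p = 0.290, 0.107 and 0.139), with SE of 3.32, 1.45 and 1.53.

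**Figure D5:**
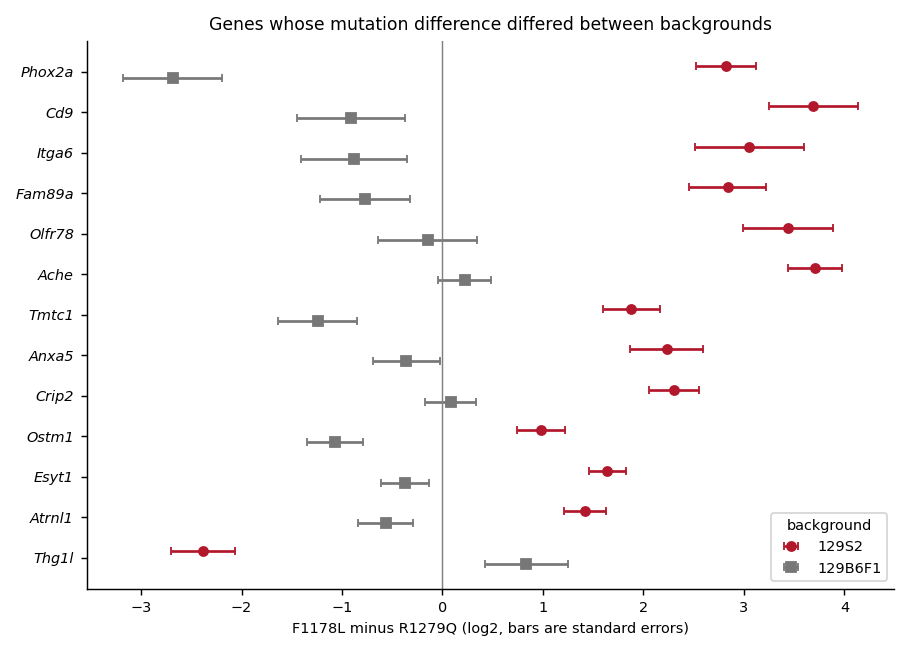
Differences, F1178L minus R1279Q on the log2 scale with standard errors, in 129S2 (red circles) and 129B6F1 (grey squares) for the 13 genes whose difference differed between the backgrounds. *Phox2a* lies at 2.82 in 129S2 and -2.68 in 129B6F1, and *Ache* at 3.71 and 0.22.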

How the data were processed

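The authors hybridized tumor RNA to Affymetrix whole-genome mouse arrays, normalized them by GCRMA with Brainarray annotations and deposited log2 values. The version and further steps are not given in the sources used here. The table held 17306 rows, and 842 of them had no symbol or shared a symbol with another row. These 842 were left unnamed, 391 of them among the 9137 rows tested. Those 391 entered the tests and the counts over all rows, but not the lists or the named genes. In the 9 tumors values ran from 1.39 to 15.32 and array medians from 4.24 to 4.51. Arrays give no counts, and their number and the background near log2 4 limit the precision.

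Groups follow the genotypes given in the labels. limma 3.58.1 in R 4.3.3 fitted the 9 tumors, on rows above log2 4 in at least 4 of them. Such a row could be high in F1178L tumors alone only if all 4 were above the limit, and in R1279Q tumors alone if 4 of 5 were. The difference between backgrounds was a contrast of 4 group means over 18 tumors. All tests were two-sided, and p values were adjusted over all rows tested. Where the lower group's mean was under log2 4, its values below 4 were set to 4 for the bound. Differences in lists are fitted values without that bound. The test was run on simulated data before use. Python 3.11.15, pandas 2.3.3 and matplotlib 3.10.9 were used for summaries and figures.

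The tumors and the gene lists were chosen with earlier results of these data known. Genes were named by a rule: 8 genes of the study (*Alk*, *Mycn*, *Ret*, *Vgf*, *Vip*, *Th*, *Dbh*, *Slc18a2*), the 15 genes that rose most and the 15 that fell most among those past the threshold, given no overlap and a mean of at least log2 6 in the higher group, up to 6 members of each list, the 5 largest differences between backgrounds each way, and called genes among the 25 neighbours on each side of *Alk*. *Slc18a3*, *Slc5a7*, *Nefl*, *Nefm*, *Nefh*, *Isl1*, *Xist*, *Sox10*, *S100b* and the further genes of the difference between backgrounds fall outside it and were named after their values were seen. Beside the lists in the report, those tested were ALK ligands and relatives (5 tested, 1 higher, 0 lower), RET receptors and ligands (2, 1 and 0), the 8 genes of the study (4 higher, 0 lower), cholinergic genes (5, 2 and 1), Schwann cell genes (3, 1 and 0), Notch genes (9 tested, 1 higher, 2 lower), p53 targets (11, 3 higher, 0 lower), the Bcl2 family (8, 1 and 1), MHC and interferon genes (8, 0 and 0), neurotrophin receptors (3, 1 and 0), endothelial genes (8, 0 and 0), chromaffin genes (7, 4 and 0, or 1 and 0 without tumor 31 and 2 and 0 without tumor 29) and adrenal cortex genes (2, 0 and 1). Of the erythroid markers 0 were tested, and of the muscle markers 1. Alternatives were other filters on low values, quantile normalization, equal array medians, the methods' two-tailed t-test, array weights, trended and robust moderation, fits on 18 or 31 tumors, sex as a covariate, male mice alone, tumors 16 and 19 averaged, and each tumor left out in turn.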

Additional observations from a re-analysis of the deposited data

Results flagged for a closer look

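Among 84 groups of tumors checked for the named genes, 10 held a tumor far from the others by Dixon's ratio, and chance alone flags about 1 in 20 groups. In F1178L tumors, tumor 31 was high for *Vip* (14.70) and *Gda* (11.30), tumor 29 was high for *Islr2* (9.10) and low for *Hs3st2* (6.04), and tumor 30 was high for *Ripply2* (4.80). In R1279Q tumors, tumor 16 was high for *Nrn1* (7.78) and low for *Dach1* (4.48), tumor 19 was high for *Cbln4* (4.32), and tumor 13 was low for *Nwd2* (1.89) and *Fam89a* (2.61). The values of *Nwd2* and *Fam89a* in tumor 13 lie below background, where order carries no meaning. Tumor 16 also had the *Peg10* value closest to F1178L tumors, 3.65, against 6.13 to 7.86 in the other R1279Q tumors.

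The difference between the mutations itself differed between the backgrounds for 13 genes (limma, adjusted p under 0.05). On the log2 scale the 129S2 difference minus the 129B6F1 difference was 5.50 for *Phox2a*, 4.60 for *Cd9*, 3.94 for *Itga6*, 3.61 for *Fam89a*, 3.59 for *Olfr78*, 3.49 for *Ache*, 3.12 for *Tmtc1*, 2.59 for *Anxa5*, 2.22 for *Crip2*, 2.05 for *Ostm1*, 2.02 for *Esyt1*, 1.98 for *Atrnl1* and -3.22 for *Thg1l*. *Ostm1* and *Olfr78* kept the call in 3 of the 18 fits that left out a tumor, *Atrnl1* in 4, *Itga6* in 6, *Cd9* and *Crip2* in 13, and *Phox2a* and *Ache* in all 18. *Ache*, *Fam89a* and *Olfr78* had entered the test only through the F1178L tumors of 129S2, where they were high.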

How the results depend on the processing

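The counts of 1106 rises and 1530 falls were 514 and 632 in the fit on the 18 tumors of known background, 533 and 794 in the fit on all 31 tumors, 385 and 247 with sex as a covariate, and 299 and 195 among male mice. Leaving out each tumor in turn gave 801 to 1155 rises and 933 to 1521 falls, and the falls moved by over 1.5 times without tumor 31 (933) and without tumor 13 (998). Filters, normalizations, the methods' two-tailed t-test, moderation, array weights and the mean of tumors 16 and 19 stayed within 1.5 times, with 869 rises and 1610 falls at equal array medians, where the median of all rows moved by -0.07. Of the 2636 called rows 612 passed with sex as a covariate and 473 among males, fits in which 2 F1178L males stand against 5 R1279Q males. None of the 42 genes named for the study, for the largest changes or for the largest differences between backgrounds reversed in 957 pairs of gene and alternative. The 15 largest rises and 15 largest falls were picked for groups without overlap, so that leaving tumors out could not reverse them. *Mycn*, *Ret*, *Vip*, *Nrn1*, *Cd5l*, *Peg10* and *Itga6* lost the call with sex as a covariate, the same genes and *Nfix* among males, *Vip*, *Cd5l* and *Neurod6* on 18 tumors, *Neurod6* on 31, and *Cd5l* with no filter. *Vgf* passed under 7 alternatives. The causes were not tested.

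The 13 calls of the difference between backgrounds were less stable. The 12 with a greater excess of F1178L in 129S2 were 7 with no filter, 6 with rows above log2 4 in 10 of the 31 tumors and 2 with array weights, and the 1 with the other sign was 3 with no filter, 2 with quantile normalization, 0 with array weights and 0 with sex as a covariate, fits in which 1234 and 1126 rows had an unadjusted p under 0.05 (limma). Leaving out a tumor gave 2 to 40 and 0 to 31, with 40 and 31 without R1279Q tumor 9 of 129B6F1, 15 and 17 without F1178L tumor 30 of 129S2, and 2 and 0 without tumor 13, 18, 28 or 31. The counts with the first sign also left the 1.5-fold range without tumors 2, 5, 11, 14 and 38. No paired analysis was possible because tumor numbers are not shared between the groups. Values near log2 4 are limited by background, and 9 arrays by their number.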
